A study of Mus musculus with 18 samples.

Results

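The 9 genes described here encode the 5 subunits of the transcription factor NF-kB (Rela, Relb, Rel, Nfkb1 and Nfkb2) and 4 of its inhibitors (Nfkbia, Nfkbib, Nfkbie and Tnfaip3). They were listed by name, and all 9 were found among the 24062 genes of the count files and passed the filter on low counts. RNA was sequenced from 18 samples of mouse NIH3T3 cells, an established embryonic fibroblast line. The parental line (called WT) and a derived line carrying mCherry-mTRIM21, mouse TRIM21 fused to a red fluorescent protein (called TRIM21), were each electroporated with PBS, with bovine serum albumin (BSA) or with an IgG antibody (ab18447). There were 3 samples in each of the 6 groups, and RNA was taken 16 h later. Every group received 2 electric pulses of 20 ms at 1400 V, the PBS groups included, and the BSA and IgG groups received 7.5 µg of protein. The study had 1 derived line, and the labels give neither the promoter that drives the fusion nor whether the line is 1 clone, so the fusion and any other difference between the 2 lines cannot be told apart. The labels do not say whether the 3 samples of a group came from separate cultures, so each p-value measures the spread between these samples, which may be technical.

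NF-kB proteins act as dimers. In resting cells inhibitors of the IkB family hold these dimers in the cytoplasm, and IkB kinase marks the inhibitors for destruction when a receptor is engaged. The freed dimers enter the nucleus and switch on genes that include their own inhibitors, which makes the pathway self-limiting. TRIM21 is a cytosolic antibody receptor and ubiquitin ligase, and antibody-bound viruses that reach it are known to activate NF-kB. The comparisons below therefore ask whether the RNA of these 9 genes differed with the line, with the electroporated protein, or with both.

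The lines and the cell type matched their labels. Trim21 was at 1038 ± 63.6 CPM (counts per 1e+06 counts, SD, n = 9) in the TRIM21 line and at 8.02 ± 1.13 CPM (n = 9) in the WT line, and the exact two-sided permutation p was 4.11e-05, the smallest that 48620 assignments allow. All 10 fibroblast markers were present, and their summed level was 18502 to 30403 CPM in the TRIM21 line and 26386 to 34991 CPM in the WT line. Of 9 leukocyte markers, 6 stayed under 1 CPM in every library, with Emr1 and Cd3e at 0, while Cd68, Csf1r and Cd14 were detected. The summed leukocyte level was 12.4 to 17.1 CPM in the TRIM21 line and 11.98 to 15.9 CPM in the WT line. Of 7 epithelial markers 6 and of 5 endothelial markers 4 stayed under 1 CPM. The libraries held 19509017 to 29766433 counts on genes, and all 18 pairs of libraries from 1 group differed by more than sampling noise.

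Because NF-kB is known to act on its own inhibitor genes, the stretches just upstream of 4 of the genes are shown, with matches to the kappaB consensus in capitals. The sequences are RefSeq promoter windows on GRCm38.p6, written 5′ to 3′ on the gene's strand and limited to bases outside annotated exons. Tnfaip3 is the gene whose level varied most, and Nfkbia, Nfkbie and Rel are shown beside it because they carry matches too.
Tnfaip3, chr10:19015411-19015547, minus strand: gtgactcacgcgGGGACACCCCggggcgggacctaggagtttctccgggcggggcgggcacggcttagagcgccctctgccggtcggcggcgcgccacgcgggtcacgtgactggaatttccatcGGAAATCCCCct
Nfkbia, chr12:55492648-55492897, minus strand: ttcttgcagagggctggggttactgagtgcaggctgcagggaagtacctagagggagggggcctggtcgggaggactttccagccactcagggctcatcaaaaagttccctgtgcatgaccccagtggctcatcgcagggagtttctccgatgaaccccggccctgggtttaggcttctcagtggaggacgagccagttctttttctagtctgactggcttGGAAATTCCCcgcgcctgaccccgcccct
Nfkbie, chr17:45555450-45555699, plus strand: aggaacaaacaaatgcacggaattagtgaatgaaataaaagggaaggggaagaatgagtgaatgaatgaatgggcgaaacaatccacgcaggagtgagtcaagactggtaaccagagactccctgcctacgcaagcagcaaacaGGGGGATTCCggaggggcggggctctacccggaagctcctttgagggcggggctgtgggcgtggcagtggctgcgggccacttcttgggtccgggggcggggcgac
Rel, chr11:23770971-23771219, minus strand: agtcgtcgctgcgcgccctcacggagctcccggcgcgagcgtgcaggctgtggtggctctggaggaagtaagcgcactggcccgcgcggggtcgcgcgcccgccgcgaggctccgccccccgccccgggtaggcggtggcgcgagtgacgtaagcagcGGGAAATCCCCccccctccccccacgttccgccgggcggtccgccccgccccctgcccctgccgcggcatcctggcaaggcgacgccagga
The Tnfaip3 stretch held 2 matches, one 12 to 3 bases and one 125 to 116 bases before the start site. The Nfkbia match lay 29 to 20 bases, and the Nfkbie match 106 to 97 bases, before the start site. In Rel, overlapping matches on both strands filled the bases from 92 to 82 before the start site. The 3 windows of Nfkb2 held the matches GGGAATTCCC, GGGGCTTTCC, GGAATGTCCC and GGGACTTTCC. The windows of Rela and Nfkbib, and the other window of Tnfaip3 (chr10:19011964-19012213), held no match to these letters. Searched on both strands, the consensus occurred in 7 of the 10 member windows of 250 bases, and in 1279 of 32817 such windows over all promoters (3.90%). The 10 windows came from 7 genes and are not separate units. Nfkb2 had 3 of them, in part overlapping, and Tnfaip3 had 2. The looser pattern GGGNNNNNCC, which overlaps the consensus, occurred in 9 of the 10 member windows and in 45.8% of all windows. A match is a run of letters and was not tested for binding. The promoter set used held no window for Nfkb1 or Relb, so these 2 genes were not searched.

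In these fibroblasts all 9 genes were expressed, and their order was set per kilobase of annotated exon so that genes of different length could be compared. Nfkb2, which encodes p100 and its processed form p52, led with a mean level of 21.2 CPM per kilobase. Rela, the transactivating subunit p65, followed at 19.0 CPM per kilobase. Nfkbia, the fast-turning inhibitor IkB-alpha, was at 14.2 CPM per kilobase, and Nfkb1, which encodes p105 and p50, at 10.3 CPM per kilobase. The ranges over the 18 libraries overlapped between each of these neighbours. Below a gap came Relb, the main partner of p52, at 4.52 CPM per kilobase, and Nfkbib, which encodes IkB-beta, at 4.19 CPM per kilobase, with overlapping ranges. After a second gap came Nfkbie (IkB-epsilon) at 1.83, Tnfaip3 (A20, a ubiquitin-editing enzyme that shuts down signalling upstream of IkB kinase) at 1.42 and Rel (c-Rel, best known from lymphocytes) at 0.562 CPM per kilobase, each overlapping the next. Among all genes tested, Nfkb2 stood at the 80.2th percentile of this measure and Rel at the 10.8th. The place of Nfkb1 depended on the length used: with the longest transcript it led at 30.0 CPM per kilobase, because its annotated exons sum to 12061 bases and its longest transcript has 4149.

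**Figure D1:**
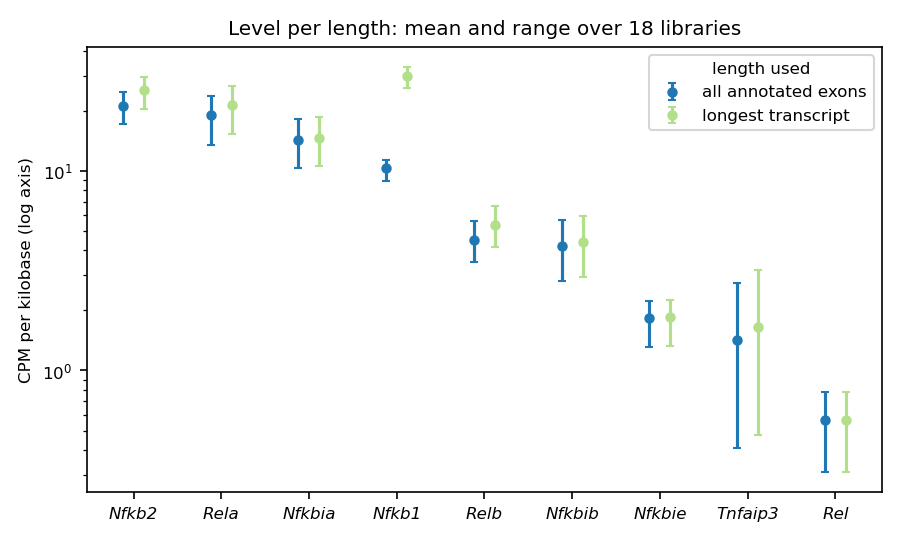
Level of each gene in CPM per kilobase on a log axis, with points at the mean and bars from the lowest to the highest of 18 libraries, for 2 definitions of length. Nfkb2, Rela, Nfkbia and Nfkb1 lie above the other 5 genes, and Nfkb1 moves from 10.3 to 30.0 when the longest transcript is used.

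On the CPM scale, which does not correct for length, spread differed widely between the genes. Nfkb1 (chr3:135584655-135691547) was the steadiest, with a coefficient of variation of 6.26% over the 18 libraries. The subunit genes Nfkb2 (chr19:46304320-46312385), Rela (chr19:5637483-5648130) and Relb (chr7:19606217-19629438) had coefficients of variation of 10.7%, 13.6% and 14.1%. Rel (chr11:23736847-23770970) varied by 26.5% on 53 to 131 counts a library, and the part of counting error in this spread was not tested. Among the inhibitors, Nfkbie (chr17:45555703-45563169), Nfkbia (chr12:55489410-55492647) and Nfkbib (chr7:28758251-28767512) varied by 11.8%, 12.7% and 18.3%. Tnfaip3 (chr10:19000910-19015657) stood apart with 51.2%, on 66 to 443 counts a library. These positions are on GRCm38. The exons of Nfkb2 share 299 bases with Psd and those of Nfkbib share 42 bases with Sirt2, in each case on the opposite strand. The strand setting of the counting is not given in the sources used here, so reads in those bases cannot be told apart.

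**Figure D2:**
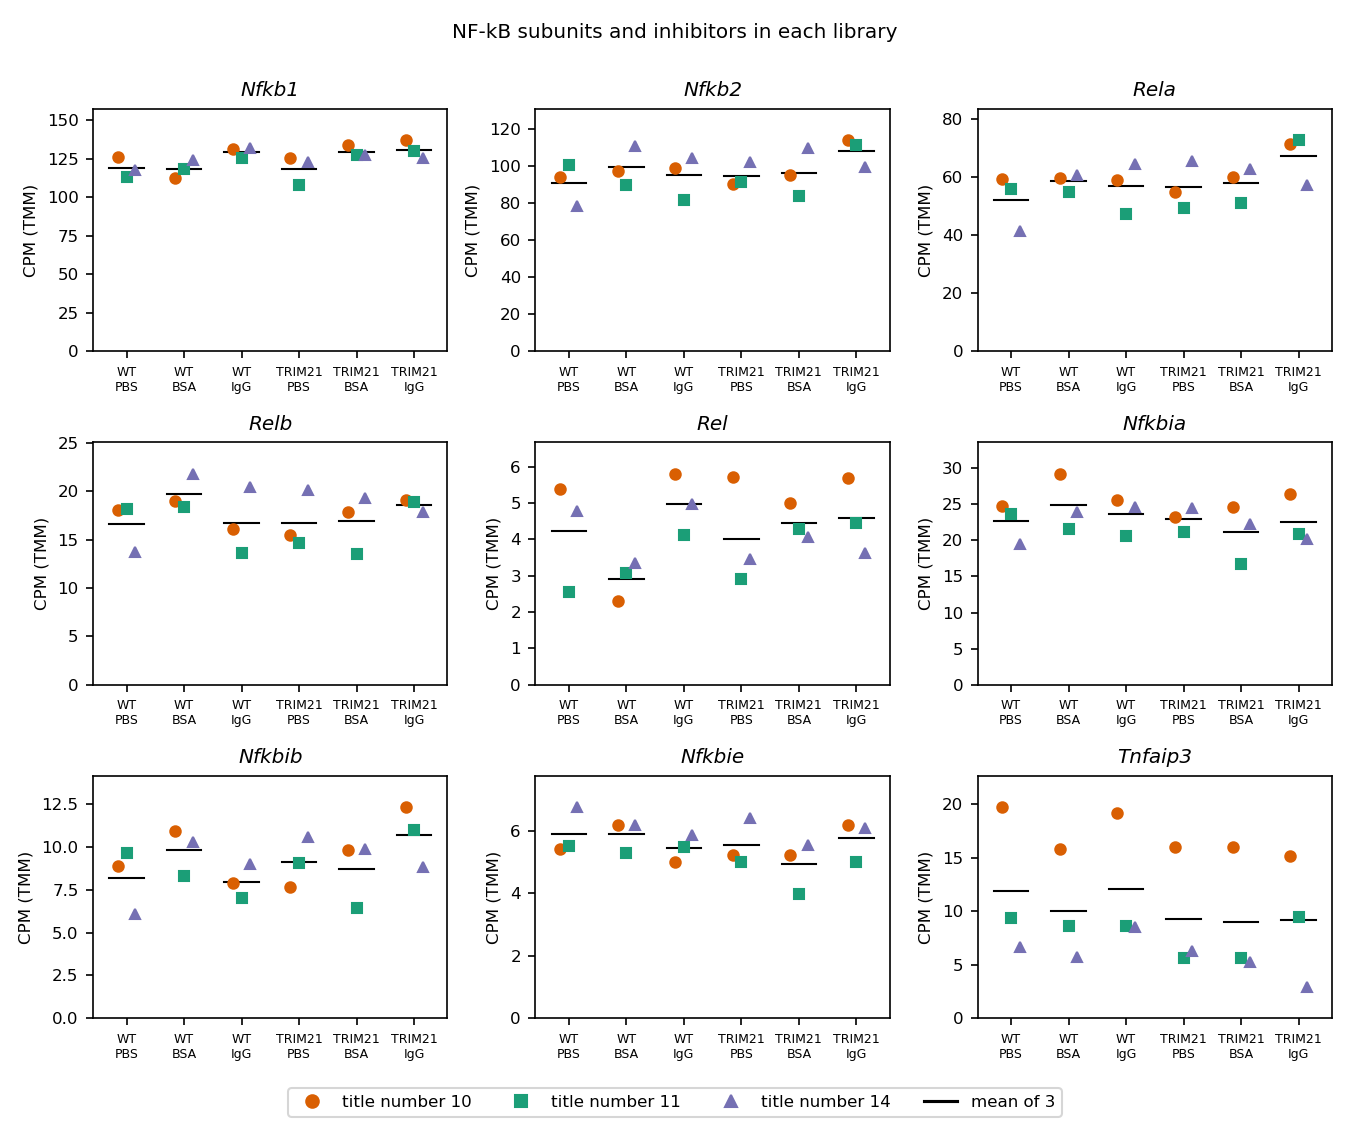
CPM of each gene (vertical axes from 0) in the 18 libraries by group, with colour and shape for the number in the sample title and a line at the mean of 3. Tnfaip3 spans 2.96 to 19.7 CPM, and none of the 9 genes was called between treatments or lines.

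The first comparison set the TRIM21 line against the WT line, averaged over PBS, BSA and IgG. None of the 9 genes was called by edgeR's quasi-likelihood test at an adjusted p under 0.05, where 6.18% of 12140 genes tested were called, 1.39% higher and 4.79% lower in the TRIM21 line. For every one of the 9 genes the values of the 2 lines overlapped. Among the subunits, Rel had a log2 difference of 0.14 (95% interval -0.19 to 0.47), Rela of 0.11 (-0.07 to 0.29), Nfkb2 of 0.07 (-0.08 to 0.22), Nfkb1 of 0.05 (-0.05 to 0.14) and Relb of -0.02 (-0.22 to 0.19). These intervals bound the difference for Nfkb1 most narrowly. Among the inhibitors, Nfkbib had a log2 difference of 0.14 (-0.11 to 0.38), Nfkbie of -0.08 (-0.28 to 0.11), Nfkbia of -0.09 (-0.28 to 0.10) and Tnfaip3 of -0.31 (-1.02 to 0.40). The median was 0.07 over the 5 subunits and -0.09 over the 4 inhibitors, beside 0.01 over all genes tested. In bulk RNA, fewer cells with a transcript and less of it per cell cannot be told apart.

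Tnfaip3 had the largest estimate and the widest interval of the 9. In the WT line it lay at 5.76 CPM (lowest), 8.66 CPM (median) and 19.7 CPM (highest), and in the TRIM21 line at 2.96, 6.26 and 16.0 CPM. The TRIM21 library was the lower one in 7 of the 9 pairs that share a treatment and a title number. Its adjusted p with edgeR was 0.637, and 0.0894 with the title number added to the model. The log2 difference was negative within each title number, at -0.21 for number 10, -0.39 for number 11 and -0.57 for number 14, values given without a test.

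Taken after each treatment separately, the line comparison again called none of the 9 genes. The share of all genes called was 1.71% after PBS, 0.848% after BSA and 0.774% after IgG. Only 2 of the 27 gene values had an unadjusted p under 0.05 in edgeR. Rel after BSA had a log2 difference of 0.60 (SE 0.277, adjusted p = 0.456), and Nfkbib after IgG one of 0.43 (SE 0.201, adjusted p = 0.633). For Rel, the TRIM21 libraries after BSA had 5.003, 4.29 and 4.05 CPM and the WT libraries 2.31, 3.09 and 3.35 CPM, so these 2 groups of 3 did not overlap. How many of all genes tested had no overlap was not counted, so this is a description only.

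The second set of comparisons asked whether the electroporated protein changed the 9 genes, and none was called. No gene of the 12140 was called in any of the 6 comparisons: the share called was 0% for IgG against PBS, 0% for IgG against BSA and 0% for BSA against PBS, in each line. With an unadjusted p under 0.05 edgeR counted 681, 45 and 447 genes in the TRIM21 line and 325, 713 and 302 in the WT line, in that order. The DESeq2 Wald test called 0 genes in the same 6 comparisons. The 54 values of the 9 genes lay between log2 differences of -0.53 and 0.77, and the lowest adjusted p was 0.724.

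The comparison closest to the study's question is IgG in the TRIM21 line, which carries the antibody receptor. Rela was at 71.4, 72.7 and 57.3 CPM after IgG (title numbers 10, 11 and 14), at 54.9, 49.4 and 65.4 CPM after PBS and at 59.9, 51.2 and 62.9 CPM after BSA. The 3 groups overlapped, because the library with number 14 was the lowest after IgG and the highest after PBS and BSA. The log2 difference of Rela was 0.25 (95% interval -0.07 to 0.56) for IgG against PBS and 0.21 (-0.10 to 0.52) for IgG against BSA. Nfkb2 had 0.19 (-0.07 to 0.45) against PBS, Nfkb1 0.14 (-0.03 to 0.31), Relb 0.15 (-0.21 to 0.50) and Rel 0.20 (-0.38 to 0.77). The inhibitors Nfkbia (-0.03, interval -0.36 to 0.30), Nfkbib (0.23, -0.19 to 0.65), Nfkbie (0.05, -0.28 to 0.38) and Tnfaip3 (-0.01, -1.26 to 1.23) completed that comparison. Over the 4 inhibitors the median was 0.02, beside 0.19 over the 5 subunits and 0.01 over all genes tested. In the WT line the medians for IgG against PBS were -0.01, 0.12 and -0.0011, in that order. All 5 subunits had positive estimates for IgG against PBS in both lines, the lowest in the WT line at 0.0023. All 5 were also positive for BSA against PBS in the TRIM21 line (median 0.03), and 3 were in the WT line. The 5 are not separate units, because Nfkb2, Rela and Relb varied together, as described below. For IgG against BSA the subunit median was 0.14 in the TRIM21 line and -0.04 in the WT line. The GC tilt of a library is the slope of its log2 deviations on the GC content of genes, per 10 percentage points, and Rela, Nfkb2 and Relb tracked it. In the TRIM21 line the tilt was 0.11, 0.12 and -0.0019 after IgG and -0.14, -0.07 and 0.13 after PBS (title numbers 10, 11 and 14). Its part in these differences was not tested.

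The widths of these intervals set what could be seen with this model, which held the 6 group means without the title number. The spread of Tnfaip3 between title numbers, described below, is therefore part of its interval. For IgG against PBS in the TRIM21 line, all but the interval of Tnfaip3 lie within log2 differences of -1 and 1, while that of Tnfaip3 reaches beyond both. Nfkbia, whose transcript is a classic early readout of NF-kB activity, was at 26.4, 20.9 and 20.1 CPM after IgG in the TRIM21 line and at 23.2, 21.2 and 24.5 CPM after PBS. Those groups overlapped. The single treatment value with an unadjusted p under 0.05 was Rel for IgG against BSA in the WT line, at 5.81, 4.11 and 4.98 CPM against 2.31, 3.09 and 3.35 CPM. The groups did not overlap, given as a description because overlap was not counted over all genes tested. The log2 difference was 0.77 (SE 0.279) and edgeR's adjusted p was 0.741, so this difference did not pass the test. It rests on the same 3 WT libraries after BSA as the line difference of Rel given above.

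**Figure D3:**
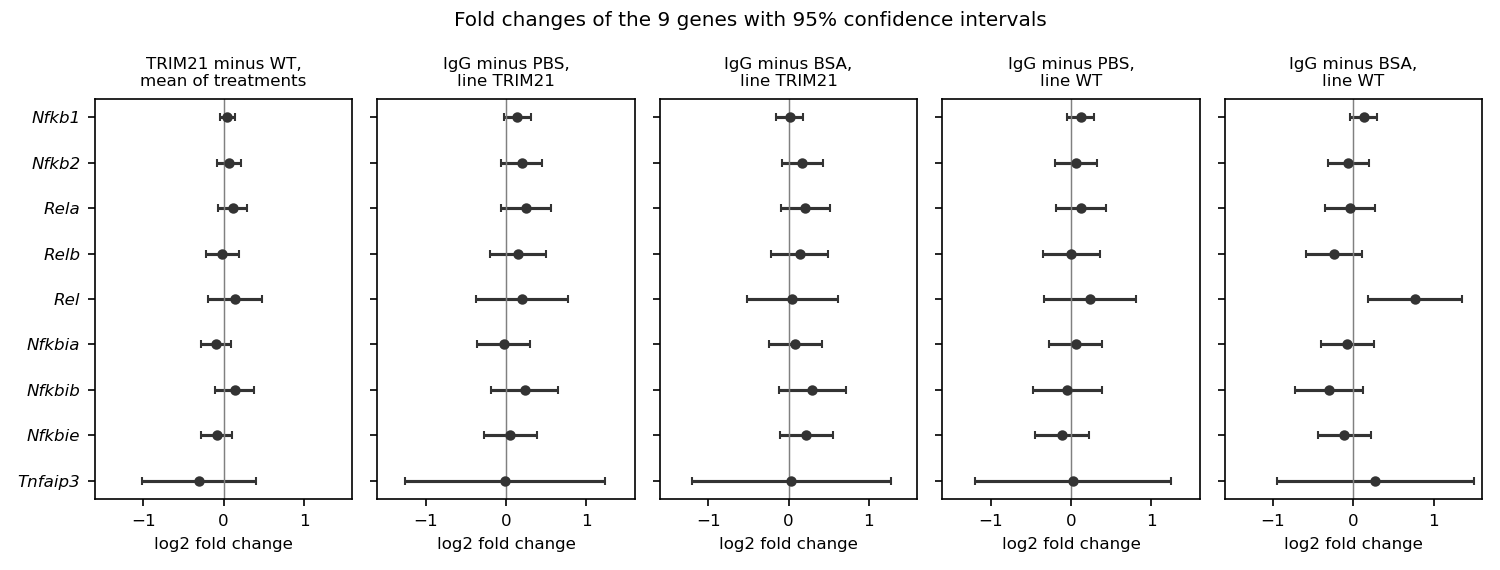
log2 fold changes of the 9 genes (points) with 95% confidence intervals (bars) for the line comparison and for IgG against PBS and against BSA in each line. The interval for Rel in the WT line, IgG against BSA, lies above 0 without passing adjustment, and those of Tnfaip3 are the widest.

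The third set compared each treatment difference between the 2 lines, as an interaction. Again 0% of genes was called for IgG against PBS, 0% for IgG against BSA and 0% for BSA against PBS. In edgeR 221, 482 and 790 genes had unadjusted values under 0.05. None of the 27 values of the 9 genes was called, and the lowest adjusted p was 0.651. Nfkbib had the only unadjusted p under 0.05, with a log2 interaction of 0.60 (95% interval 0.00 to 1.19) for IgG against BSA and an adjusted p of 0.843. Its levels after IgG were 12.3, 10.98 and 8.84 CPM in the TRIM21 line and 7.90, 7.004 and 8.97 CPM in the WT line, and these ranges overlapped.

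The pattern that separated libraries for one of the 9 genes followed the number in the sample title. Each of the numbers 10, 11 and 14 occurs once in every group, and the labels do not say what it marks. This comparison was added after the values of Tnfaip3 had been seen, so its p-values describe these libraries and are no independent evidence. The model kept the 6 group means and added the number. Its standard errors and p-values measure the spread between libraries within a number, not between numbers.

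Tnfaip3 was highest in the library numbered 10 in all 6 groups. These libraries had 19.7 CPM (PBS), 15.8 CPM (BSA) and 19.2 CPM (IgG) in the WT line, and 16.0, 16.0 and 15.1 CPM in the TRIM21 line. The libraries numbered 11 had 9.36, 8.66 and 8.58 CPM in the WT line and 5.65, 5.68 and 9.45 CPM in the TRIM21 line. Those numbered 14 had 6.66, 5.76 and 8.53 CPM in the WT line and 6.26, 5.30 and 2.96 CPM in the TRIM21 line. The 6 libraries numbered 10 thus lay above all 12 others, with 17.0 ± 1.95 CPM (SD, n = 6) against 6.90 ± 2.00 CPM (n = 12). The fitted rise was 2.501-fold, a log2 difference of 1.32 (SE 0.128, 95% interval 1.05 to 1.59, edgeR adjusted p = 2.76e-05). With 1 line at a time, the log2 difference was 1.43 in the TRIM21 line (adjusted p = 0.0199) and 1.22 in the WT line (adjusted p = 0.0039).

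Tnfaip3 was the only one of the 9 genes called for number 10, where 5.51% of all genes tested were called, 3.39% higher and 2.13% lower. Nfkbia had a log2 difference of 0.25 (95% interval 0.10 to 0.40, adjusted p = 0.0552) and was highest at number 10 in 5 of the 6 groups, with 23.2 to 29.2 CPM against 16.7 to 24.5 CPM in the other 12. The DESeq2 Wald test called it (adjusted p = 0.0309), and so did edgeR without the TRIM21 PBS library numbered 10 (adjusted p = 0.0430) or the WT PBS library numbered 11 (adjusted p = 0.0192). Rel had a log2 difference of 0.37 (0.08 to 0.67, adjusted p = 0.128) and was highest at number 10 in 5 of the 6 groups as well. The exception was the WT library after BSA, the lowest of all at 2.31 CPM, and without that library the adjusted p was 0.0363. The other 6 genes had log2 differences between -0.0024 and 0.11. Between the numbers 11 and 14, 5.23% of genes tested were called and none of the 9. Nfkbie came nearest with a log2 difference of -0.29 (adjusted p = 0.0679), and Tnfaip3 had 0.43 (adjusted p = 0.123). Without the WT PBS library numbered 14, Relb was called between 11 and 14, at a log2 difference of -0.34 (adjusted p = 0.0361).

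**Figure D4:**
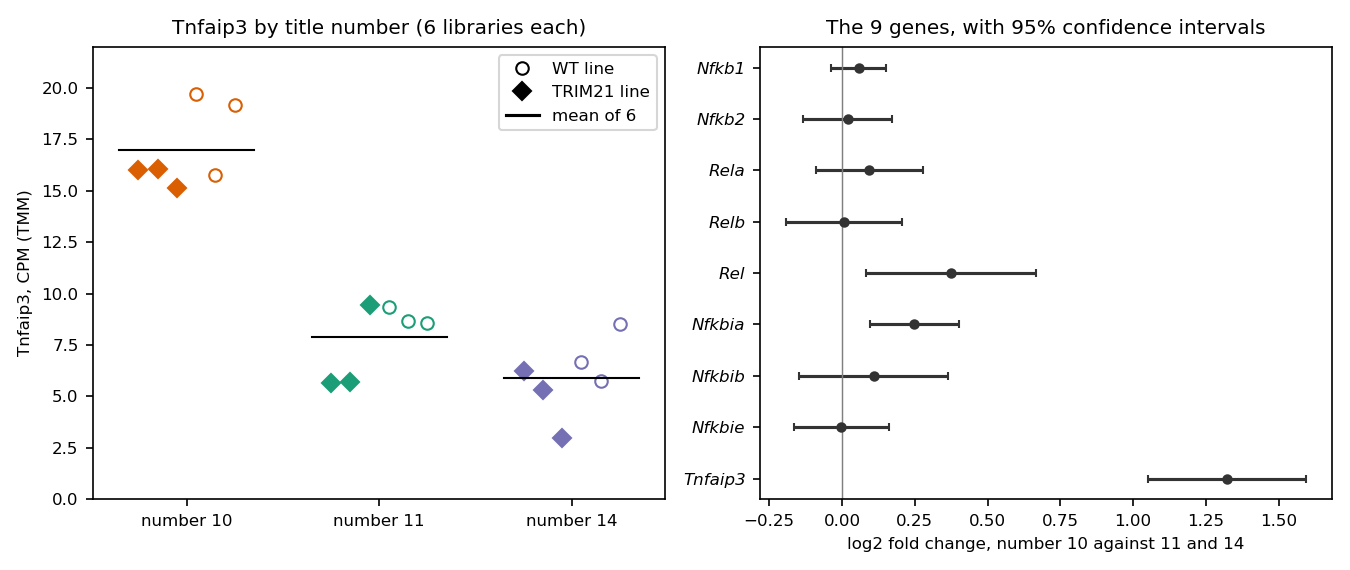
Left, Tnfaip3 in CPM by title number, with open circles for WT libraries, filled diamonds for TRIM21 libraries and a line at the mean of 6. Right, log2 fold changes of the 9 genes for number 10 against 11 and 14 with 95% confidence intervals, where Tnfaip3 stands at 1.32 and the others between -0.0024 and 0.37.

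Measures of library quality overlapped between the libraries numbered 10 and the others. The share of uniquely placed reads given to no gene was 13.1% to 17.0% at number 10 and 15.04% to 18.8% in the other 12. At number 10, WT after BSA (13.1%), TRIM21 after BSA (13.9%) and WT after PBS (14.8%) lay below all 12 others. The rest numbered 10 lay within the range of the others. The GC tilt ran from -0.14 to 0.11 log2 units per 10 percentage points at number 10 and from -0.29 to 0.15 in the others. Their part in the Tnfaip3 difference was not tested.

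Genes of the listed pathway groups were compared by title number in the same way. Of 40 listed target genes 26 were tested, and 1 was called for number 10, a share near the 3.39% of all genes tested that were called higher. This was Ier3, an immediate early response gene, which rose by a log2 difference of 1.09 (edgeR adjusted p = 0.000186), with 39.6 to 50.4 CPM at number 10 and 15.2 to 31.1 CPM elsewhere, without overlap. The median of the 26 target genes was 0.01, beside 0.00 over all genes tested. Among 10 listed genes (IkB kinase subunits, related kinases and Tab1, Tab2 and Tab3), Tbk1 was called at a log2 difference of 0.19 (edgeR adjusted p = 0.0470). The call was lost in 15 of 18 fits that left out 1 library, at adjusted p-values up to 0.185. It stayed without the PBS libraries of the TRIM21 line numbered 11 or 14 and of the WT line numbered 14. None of the 10 tested receptors, 20 adaptors and ubiquitin ligases and 13 other brakes was called. The inducible genes Tnf, Il1b, Cxcl2 and Ccl20 held at most 1 count in any library, so this part of the target list was below detection at this depth.

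Across the 18 libraries, 4 of the genes varied together. Pearson's r of log2 CPM was 0.91 for Nfkb2 with Rela, 0.87 for Nfkb2 with Nfkbib, 0.86 for Nfkb2 with Relb, 0.84 for Rela with Nfkbib, 0.82 for Relb with Nfkbib and 0.81 for Rela with Relb. Spearman's rho for these 6 pairs was 0.90, 0.83, 0.82, 0.83, 0.76 and 0.82, in the same order. In permutation tests with 100000 draws, adjusted over 36 relations, the highest p among them was 0.000309 for r and 0.00306 for rho. Without the 2 libraries farthest from the median, r was 0.84, 0.79, 0.77, 0.73, 0.74 and 0.71. Within the 6 libraries of 1 title number, the values stayed between 0.56 and 0.97. After removal of group means, r was 0.82 to 0.91.

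Nfkb1 and Rel formed another pair, with r = 0.79 and rho = 0.75 (adjusted permutation p = 0.000309 and 0.00355). Without the 2 farthest libraries r was 0.72. Within numbers 10 and 11 it was 0.84 and 0.91, but within number 14 it was 0.13, so the relation did not hold there. Nfkb1 and Nfkb2, whose products are both processed precursors, had r = 0.36 and rho = 0.38 (adjusted permutation p = 0.289 and 0.265). Because Tnfaip3 fell into separate clusters of libraries, no pooled value is given for it. With Nfkbia, Tnfaip3 had r = -0.23 within number 10, 0.65 within number 11 and 0.52 within number 14, so the relation cannot be established on 6 libraries each.

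The 4 genes that varied together also had GC-rich transcripts and tracked the GC tilt of the library. Their longest transcripts had 59.4% GC (Nfkb2), 59.4% (Rela), 58.8% (Nfkbib) and 56.8% (Relb), beside a median of 49.5% over the genes tested. The correlation of their level with the GC tilt over the 18 libraries was r = 0.91 for Nfkb2, 0.85 for Rela, 0.91 for Nfkbib and 0.92 for Relb, with rho of 0.88, 0.78, 0.82 and 0.88. The highest permutation p among these was 3e-05 for r and 0.00035 for rho, before adjustment over 9 relations. The tilt is itself a slope on GC content over the genes tested, so GC-rich genes tend to follow it by definition. The correlation with the tilt was not computed for other genes of like GC content. These p-values therefore do not set the 4 genes apart. Within 1 title number r ran from 0.75 to 0.98. Without the 2 farthest libraries it was 0.84, 0.71, 0.84 and 0.89, in the order given. Nfkb1 (44.9% GC) and Rel (42.5% GC) had r = 0.12 and -0.33 with the tilt. Nfkbia (52.9% GC) had r = 0.56 and rho = 0.40 (adjusted permutation p = 0.0266 and 0.177). Nfkbie, at 55.4% GC also above the median, had r = 0.25, with 0.86 within number 10, 0.43 within number 11 and -0.63 within number 14. The libraries with the extreme tilts were WT after BSA numbered 14 (0.15) and WT after PBS numbered 14 (-0.29), which were also high and low for Nfkb2, at 110.5 and 78.3 CPM. The part of the tilt in the shared variation of these genes was not tested.

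**Figure D5:**
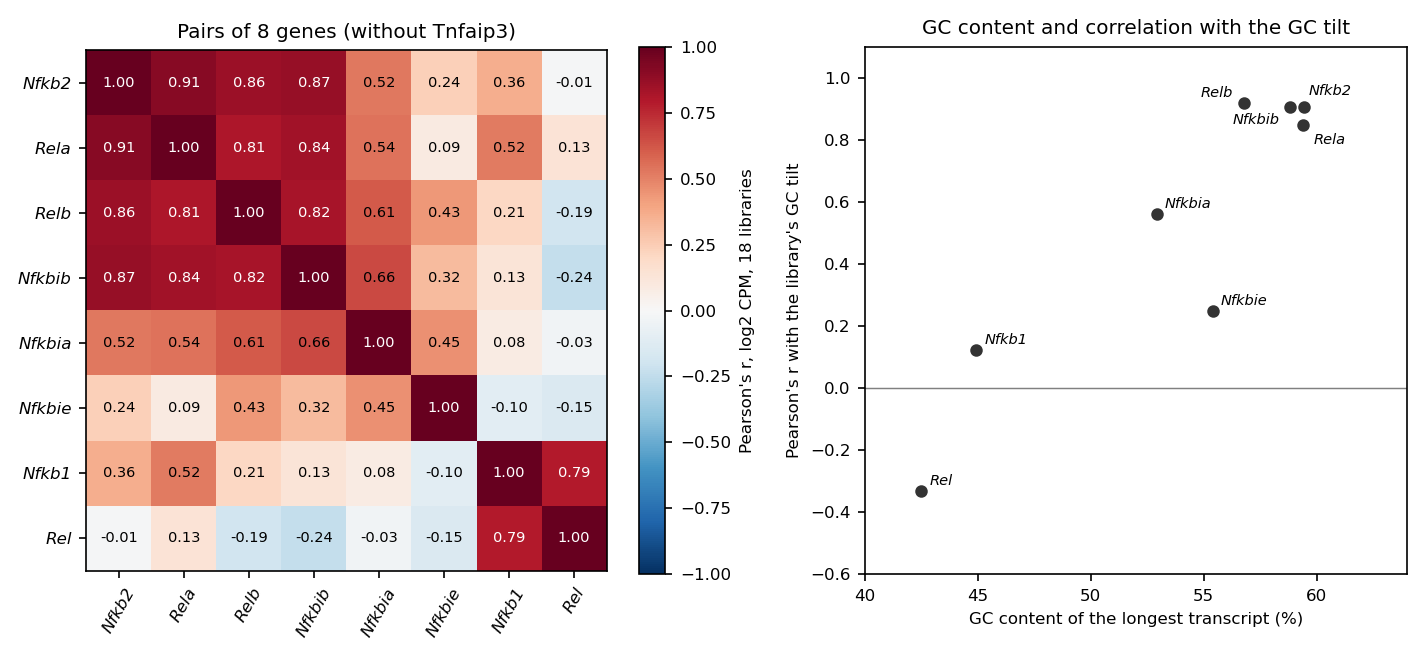
Left, Pearson's r of log2 CPM over 18 libraries for pairs of 8 genes, from blue (-1) to red (1). Right, the r of each gene with the library's GC tilt against the GC content of its longest transcript, where the 4 genes Nfkb2, Rela, Relb and Nfkbib lie together at 56.8% to 59.4% GC and r of 0.85 to 0.92.

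The tested gene with the most similar profile over the 18 libraries was found for each of the 9 by Pearson's r of log2 CPM, as a description. These were Hgs for Nfkb2 (r = 0.96), Inf2 for Rela (0.97), Mgat1 for Relb (0.96) and Nfkbil1 for Nfkbib (0.96). For Nfkb1 it was Zfp646 (0.90), for Rel Tnks (0.95), for Nfkbia Fstl3 (0.92) and for Nfkbie Setmar (0.77). For Tnfaip3 it was Bhlhe40, a stress-responsive transcriptional repressor, with r = 0.72 within number 10 and 0.74 over the other 12 libraries. Bhlhe40 was at 189.9 to 217 CPM in the libraries numbered 10 and at 73.7 to 129 CPM in the other 12, given as a description because it was chosen for its likeness to Tnfaip3.

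The rest of the pathway was compared between the lines, averaged over treatments, from listed genes grouped by role. Of 10 listed genes (IkB kinase subunits, related kinases and Tab1, Tab2 and Tab3) none was called, where 6.18% of all genes tested were called. Their median log2 difference was 0.01. The largest estimates were Ikbke at -0.30 (adjusted p = 0.0809) and Tbk1 at -0.13 (adjusted p = 0.293). Ikbke was called without the TRIM21 PBS library numbered 14 (adjusted p = 0.0288) and by the DESeq2 Wald test (adjusted p = 0.0438).

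Of 11 listed receptors 10 were tested, 2 were called lower in the TRIM21 line and none higher, with a median of 0.02, where 4.79% of all genes tested were called lower and 1.39% higher. Tlr2, which senses bacterial lipoproteins, was at 2.90 ± 0.882 CPM in the TRIM21 line and 6.09 ± 1.49 CPM in the WT line (n = 9 each), with overlapping ranges of 1.00 to 4.40 and 3.59 to 8.24 CPM. It fell by 1.08 on the log2 scale (SE 0.190, edgeR adjusted p = 0.00145). Tnfrsf11a, the receptor RANK, was at 0 in all 9 TRIM21 libraries and held 65 counts over 8 of 9 WT libraries. Against a floor of 3 counts over the 9 TRIM21 libraries it was at least 23.0-fold lower, and the median of the list was 0.02 with this bound too. It passed the filter on low counts only through the WT libraries, so its call is given as a count and no p is given.

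Of 21 adaptors and ubiquitin ligases 20 were tested, and Traf5, an adaptor of the TNF receptor family, was the 1 called, a share near the 4.79% of all genes tested that were called lower. It was at 12.7 ± 0.960 CPM in the TRIM21 line and 15.3 ± 1.05 CPM in the WT line (n = 9 each) and fell by 0.27 on the log2 scale (adjusted p = 0.0144). The list's median was -0.01. Of 14 other brakes and nuclear IkB proteins 13 were tested and none was called, with a median of -0.03. There Tnip1, a partner of A20, had a log2 difference of -0.22 (adjusted p = 0.308) and Nfkbiz one of -0.19 (adjusted p = 0.464).

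Of the 26 target genes tested, 3 rose in the TRIM21 line and none fell, with a median of 0.06, where 1.39% of all genes tested were called higher and 4.79% lower. Of these, 2 are described. Ccl2, a monocyte chemokine, was at 53.1 ± 6.45 CPM against 43.9 ± 5.54 CPM in the WT line (log2 difference 0.28, adjusted p = 0.0205). Myc, a growth regulator, was at 121.5 ± 12.3 CPM against 101.2 ± 8.06 CPM (0.26, adjusted p = 0.0185). Values are means ± SD over 9 libraries a line, and the ranges of the 2 lines overlapped for both genes. Both calls were sensitive to single libraries. Leaving out 1 of 18 libraries lost Myc in 5 fits (adjusted p up to 0.0659) and Ccl2 in 4 (up to 0.0624). Ccl2 was lost without the TRIM21 libraries numbered 10 after BSA or IgG (adjusted p = 0.0524 and 0.0551) or the WT libraries numbered 14 after BSA or IgG (0.0624 and 0.0535). Myc was lost without the TRIM21 library after IgG numbered 11 (0.0603), or the WT libraries after PBS numbered 14 (0.0516), after BSA numbered 10 (0.0659), or after IgG numbered 10 (0.0501) or 11 (0.0588).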

How the data were processed

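Polyadenylated RNA of 18 samples was sequenced with a strand-specific kit, per the labels' protocols. The authors deposited raw read counts per gene symbol, 1 table a sample, without normalization. The submitters' processing notes name bcl2fastq 2.19.1.403, FastQC 0.11.5, STAR 2.5.1b, HTSeq 0.6.0, DESeq2 1.6.3 and the build mm10, without their settings. The closing lines of each table, for reads given to no gene, were left out (the no-feature line was 13.1% to 18.8% of uniquely placed reads).

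The tests used edgeR 4.0.16 (R 4.3.3). filterByExpr (minimum count 10, minimum total 15) kept 12140 of 24062 genes, TMM factors were 0.977 to 1.03, and 1 quasi-likelihood model with 6 group means was fitted to all 18 samples. P-values were adjusted by Benjamini-Hochberg over all genes tested, with a threshold of 0.05. Standard errors came from the F statistic. The comparisons were the line difference (averaged and after each treatment), 6 treatment differences, 3 interactions and, added later, the title numbers. The code was tested on simulated data. The intervals printed hold for this model, which left out the title number except where the numbers were compared.

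Alternatives were DESeq2 1.42.0 (size factors and Wald test), limma 3.58.1 (voom), no filter, at least 10 counts in every sample, only the groups compared, a replicate block and leaving out each sample. Positions, lengths and GC content came from GENCODE M21 (GRCm38), and promoters from RefSeq.

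The genes and lists were chosen with earlier results of these data known. The lists were NF-kB subunits, inhibitors, IkB kinases and related genes, receptors, adaptors and ubiquitin ligases, other brakes, and target genes. Fibroblast, leukocyte, epithelial and endothelial markers were listed too. The 9 genes and Trim21 were always named. From each list the genes called between the lines were named, at most 5, or else the 2 with the largest estimate, and for each of the 9 the gene with the highest correlation. Ier3, Tbk1 (for title numbers) and the undetected targets were named after their values were seen. One target gene that the rule names is not reported here.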

Additional observations from a re-analysis of the deposited data

Results flagged for a closer look

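Some libraries stood apart from the others of their set, by a gap to the nearest library that was large for the set's range. Of 47 sets examined (9 libraries of a line or 6 of a title number, for the 9 genes and Trim21), 9 were marked. Chance alone marks about 1 set in 20 where the values of a set are normal and alike in origin. These sets mix treatments with lines or title numbers and share libraries, so 9 of 47 cannot be read against that rate.

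The library of the TRIM21 line after PBS numbered 11 was the lowest of its line for Nfkb1 (107.814 CPM, the nearest at 123) and the highest for Trim21 (1187.7 CPM, the nearest at 1069). For Nfkb2, the TRIM21 library after IgG was the highest of those numbered 10 (113.734 CPM, the nearest at 98.8), and the WT library after PBS the lowest of those numbered 14 (78.305 CPM, the nearest at 99.3). Rela showed the same libraries, at 71.372 CPM for number 10 (the nearest at 59.9) and 41.453 CPM for number 14 (the nearest at 57.3). Rela was also highest after IgG in the TRIM21 line among libraries numbered 11, at 72.699 CPM (the nearest at 56.0). Rel was lowest after BSA in the WT line among libraries numbered 10, at 2.31 CPM (the nearest at 5.003). Nfkbie was lowest after BSA in the TRIM21 line among libraries numbered 11, at 3.98 CPM (the nearest at 4.99).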

How the results depend on the processing

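No refit changed a call among the 9 genes for the lines (216 refitted values averaged over treatments, 675 after each treatment), the treatments (1350) or the interactions (675). For the title numbers 5 of 450 gained a call and none lost one. Tnfaip3 at number 10 kept a log2 difference of 1.24 to 1.4 when 1 library was left out (adjusted p 5.66e-06 to 0.000405).

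The main model left out the title number, because the labels do not say that it pairs samples. Libraries of the same number nevertheless resembled each other in part. Of 45 same-number pairs, 32 had a correlation of deviations over 0.1 (mean 0.22, lowest -0.32). The deviations were taken from group means, so the mean over other pairs (-0.11) largely follows from that over same-number pairs. It is no separate result. Of 18 samples, 16 correlated best with their own number. With the replicate block, 1462 genes differed between the lines (750 without it), 847 after PBS (208), 187 after BSA (103) and 173 after IgG (94), and Tnfaip3 had a line difference of -0.35 (adjusted p = 0.0894).

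Requiring 10 counts in every sample gave 132, 53 and 57 genes after PBS, BSA and IgG. The DESeq2 Wald test gave 451, 164 and 166, 1064 between numbers 11 and 14 (635 in edgeR), and 2 of the 9 genes at number 10. Fitting only the groups compared gave 44 after PBS and 179 after IgG. With 1 line alone, number 10 had 49 genes (TRIM21) and 46 (WT) against 669, and 11 against 14 had 1 and 0. In the TRIM21 line alone, Nfkb2 was at -0.0057 and Nfkbie at 0.0637 for number 10, opposite in sign to the pooled values. With the longest transcript, Nfkb1, Nfkb2 and Relb moved to 30.0, 25.3 and 5.37 CPM per kilobase. The cause of these shifts was not tested.

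Leaving out 1 library gave 517 to 1268 genes between the lines (highest without the TRIM21 PBS library numbered 14), 104 to 1018 after PBS (1018 without the same library, 104 without the WT one numbered 14, 122 without the TRIM21 one numbered 11), 66 to 138 after BSA (66 and 67 without the TRIM21 BSA libraries numbered 10 and 14, 67 without the WT one numbered 14) and 69 to 148 after IgG (148 without the TRIM21 PBS library numbered 11). For number 10 it gave 202 to 941, with 202 and 402 without the TRIM21 BSA libraries numbered 10 and 14, and 300, 242 and 213 without those numbered 10 of TRIM21 IgG, WT PBS and WT IgG, and for 11 against 14 it gave 79 to 1257, with 13 of 18 fits moving the count by over 1.5 times (all but TRIM21 PBS 10, BSA 11, IgG 11 and 14, and WT IgG 11). Of the 9 genes, 1 to 2 were called at number 10 and 0 to 1 between 11 and 14. The sign turned only in estimates that were not called, in 6 refitted values between the lines, 35 after each treatment (log2 differences up to 0.4 in size), 83 for treatments (up to 0.273), 24 for interactions (up to 0.241) and 25 for title numbers (up to 0.186). Among them were Relb between the lines (-0.0727 to 0.0394), and Nfkb2 (-0.0252 to 0.0567), Relb (-0.0521 to 0.0504) and Nfkbie (-0.0445 to 0.0224) at number 10.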
